A study of Mus musculus with 7 samples.

Results

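The 40 genes described here encode the kinases that signal DNA damage and the enzymes that repair it. They were chosen by symbol. The choice used no measured value, but earlier results of these data were known when it was made. All 40 are among the 24319 rows of the deposited expression table. RNA was sequenced from cloned mouse embryos, made by nuclear transfer (SCNT) of a cumulus cell, one of the somatic cells around the oocyte, into an oocyte without chromosomes of its own. All embryos were of the B6D2F1 strain, are labelled wild type, and received injected mRNA of the histone H3 demethylase gene Kdm4a. The FOC+K group (2 libraries) used fresh oocytes. The CROC+K group (3 libraries) and the CROC+K+M group (2 libraries) used vitrified and warmed oocytes, and the CROC+K+M embryos also received 10 µM melatonin, an indole hormone with antioxidant activity. Embryos without melatonin are taken as untreated, since the labels name a vehicle without saying which libraries had it. The labelled stage is the 2-cell embryo, and each library came from a pool of 50 to 100, so differences between embryos of a pool are not seen. The labels speak of biological replicates and do not say whether these came from separate oocyte collections or days, so p-values measure the spread between these libraries only. In pooled embryos, fewer cells that carry a transcript and less of it per cell cannot be told apart.

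DNA repair works by the kind of lesion. A double-strand break is bound by the MRN complex (MRE11, RAD50 and NBN), which activates the kinase ATM, and is then rejoined directly by non-homologous end joining or copied from a sister chromatid by homologous recombination. Oxidised or deaminated bases are cut out by glycosylases in base excision repair, mispaired bases by mismatch repair, bulky adducts by nucleotide excision repair, and crosslinks through the Fanconi anaemia pathway. Single-stranded DNA that is exposed on the way is coated by replication protein A (RPA), which recruits the kinase ATR. The early embryo begins development with transcripts of these genes stored by the oocyte, and in the mouse it starts to transcribe broadly from its own genome at the 2-cell stage.

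Many genes for replication and repair are known targets of E2F factors, and the 250 bases before the start site of the members were searched for 2 E2F words on both strands: TTTCCCGC (GCGGGAAA when read on the other strand) and TTTGGCGC. The CCAAT box (CCAAT, or ATTGG on the other strand) was searched too. RefSeq promoters (mouse GRCm38.p6, while the submitters' processing notes name mm9) were at hand for 34 of the 40 members. An E2F word stood in 5 of them (14.7%), those of Chek2, Brca2, Msh3, Xrcc6 and Mdc1, against 2.53% of 9344 promoters of tested genes and 1.35% of all 27025 promoters. A CCAAT box stood in 18 of 34 (52.9%), against 37.6% and 34.5%. The promoters below are those of members whose values the results turn on and of 1 member for each E2F word. They are written 5′ to 3′, with E2F words and CCAAT boxes of either strand in capitals. A match of letters is a description and not a bound site.
Mre11a (chr9:14784404-14784653, plus strand): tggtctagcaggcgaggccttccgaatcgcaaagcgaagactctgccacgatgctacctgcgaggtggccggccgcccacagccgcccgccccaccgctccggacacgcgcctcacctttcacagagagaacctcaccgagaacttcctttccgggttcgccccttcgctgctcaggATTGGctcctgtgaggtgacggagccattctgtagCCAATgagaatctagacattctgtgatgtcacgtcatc
Rpa2 (chr4:132768110-132768359, plus strand): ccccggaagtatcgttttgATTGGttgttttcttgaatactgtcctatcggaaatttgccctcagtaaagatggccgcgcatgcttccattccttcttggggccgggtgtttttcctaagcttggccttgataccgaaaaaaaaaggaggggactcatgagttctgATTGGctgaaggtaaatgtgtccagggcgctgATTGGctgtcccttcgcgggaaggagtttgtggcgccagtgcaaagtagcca
Ogg1 (chr6:113326726-113326975, plus strand): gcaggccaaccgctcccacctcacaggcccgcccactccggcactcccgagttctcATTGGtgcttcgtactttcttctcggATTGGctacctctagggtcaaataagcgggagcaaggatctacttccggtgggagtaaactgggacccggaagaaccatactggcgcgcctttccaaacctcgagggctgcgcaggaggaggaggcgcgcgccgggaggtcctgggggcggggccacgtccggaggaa
Chek2 (chr5:110839733-110839982, plus strand): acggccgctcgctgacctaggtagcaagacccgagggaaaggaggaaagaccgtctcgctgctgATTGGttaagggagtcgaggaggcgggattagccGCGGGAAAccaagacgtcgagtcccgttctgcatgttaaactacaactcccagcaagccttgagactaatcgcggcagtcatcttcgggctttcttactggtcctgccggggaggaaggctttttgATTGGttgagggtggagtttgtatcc
Msh3 (chr13:92355004-92355253, minus strand): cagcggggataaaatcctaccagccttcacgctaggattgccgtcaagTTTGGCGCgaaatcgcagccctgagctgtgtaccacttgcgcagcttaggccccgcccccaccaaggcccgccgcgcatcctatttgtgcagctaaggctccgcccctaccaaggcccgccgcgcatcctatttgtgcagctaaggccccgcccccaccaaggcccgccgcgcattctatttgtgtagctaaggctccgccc
The promoters of Mre11a and Rpa2, whose RNA was highest where Kdm4a was lowest in the CROC+K and CROC+K+M groups, hold CCAAT boxes (2 and 3) and no E2F word. Ogg1 holds 2 CCAAT boxes, and Chek2 holds an E2F word between its 2 CCAAT boxes. Msh3, on the minus strand, holds an E2F word only.

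Values are FPKM (fragments per kilobase of transcript, scaled to the mapped fragments of the library), a unit that corrects for length and so allows levels of different genes to be set side by side. Between 35 and 39 of the 40 members had an FPKM of at least 1 in a library, and none was at 0 in any library. Where the smallest step in low values stands for 1 fragment, the libraries hold 3800000 to 5960000 fragments. CROC+K+M replicate 1 stood apart: over the 12272 tested genes it correlated with the other libraries at 0.851 to 0.875, while those correlated with each other at 0.908 to 0.974. The summed FPKM of 10 trophectoderm markers was 25780 in it, most of it from Fabp3 (24400), with all 10 at an FPKM of at least 1. In the other 6 libraries that sum lay between 33.4 and 61.9, and Cdx2, which encodes a defining trophectoderm factor, was listed at 0. The labels give CROC+K+M replicate 1 the 2-cell stage like the others, while the treatment text common to all libraries names blastocysts as well. The 10 oocyte markers were present in every library (summed FPKM 11030 to 31800), most of the sum from Dppa3 (9630 to 30590). The 12 cumulus cell markers summed to 11.03 to 23.93, with Amh and Ptx3 at 0 in all 7. The FPKM of Kdm4a was 2014 and 816.1 for FOC+K replicates 1 and 2, then 497.4, 4051 and 4949 for CROC+K replicates 1 to 3, then 2797 and 688.7 for the melatonin libraries. That row cannot separate injected from endogenous mRNA. The ribosomal RNA precursor Rn45s reached 2114 in CROC+K replicate 1 and 1183 and 1047 in the fresh-oocyte libraries, against 175.4 to 265.7 elsewhere.

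Most repair genes sat near the middle of the expressed genes. The median of the members' mean FPKM over the 7 libraries was 6.72, beside 6.94 for all tested genes, and the means ran from 0.533 to 119. Only 3 members exceeded 50, while 14 lay between 10 and 50, 20 between 2 and 10, and 3 under 2. The effector kinase gene Chek1 (mean 116.0), the RPA subunit gene Rpa2 (119.1) and the abasic site endonuclease gene Apex1 (90.45) formed the top. Each was over 60 in all 7 libraries.

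**Figure D1:**
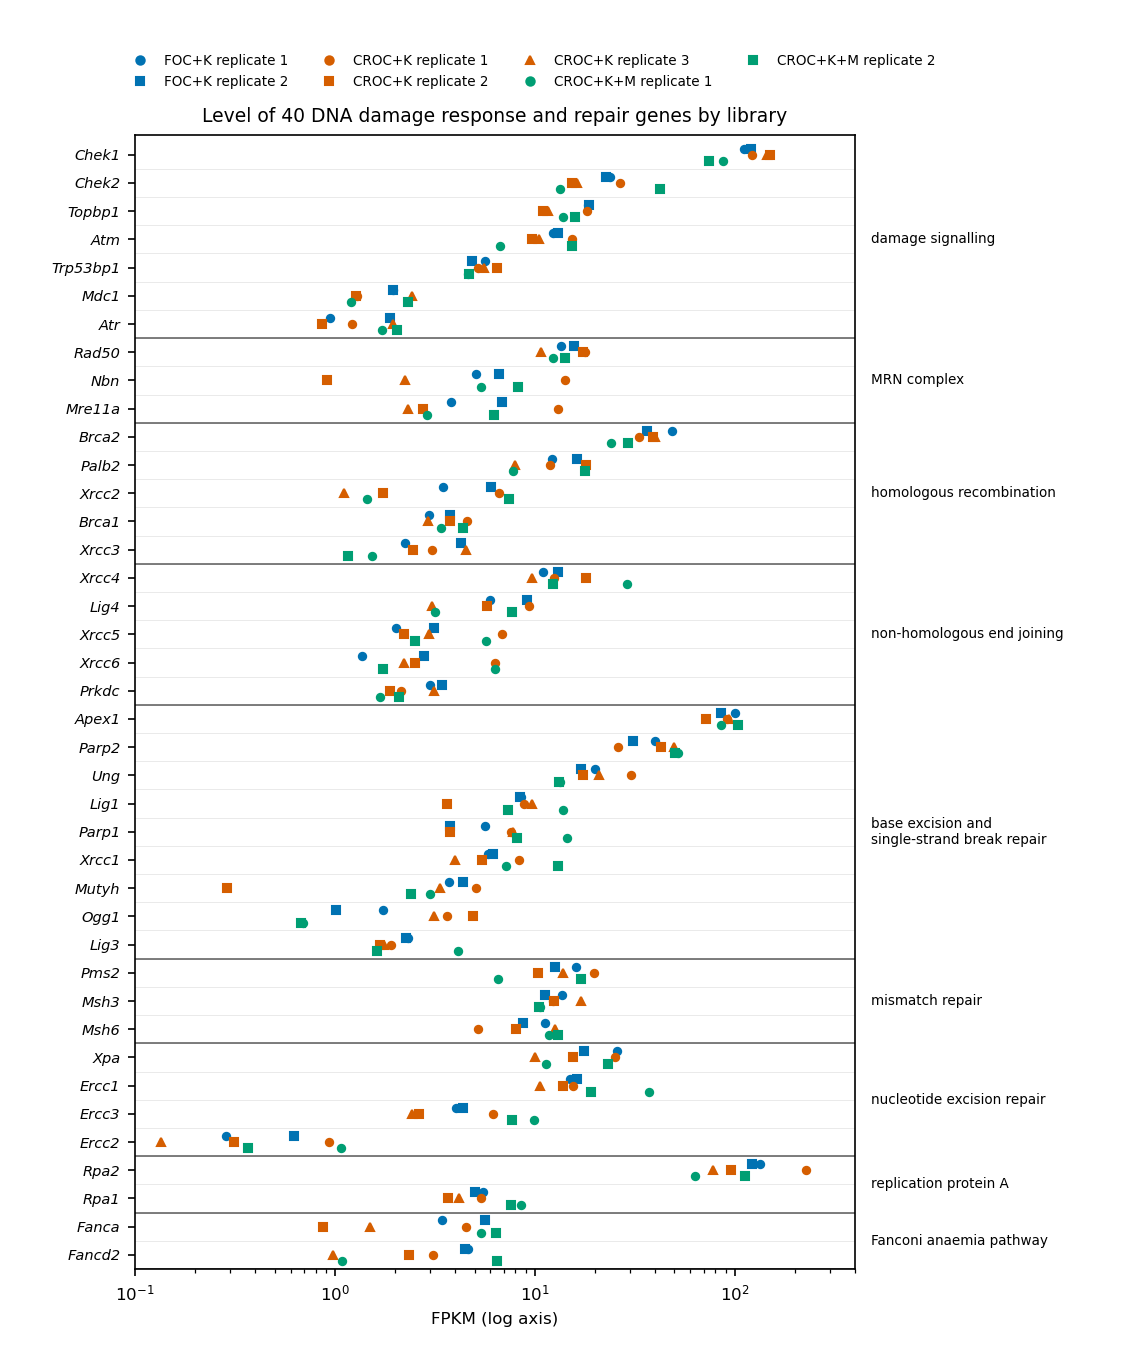
FPKM of the 40 repair genes (log axis) in each of the 7 libraries, by pathway, with colour for the group and shape for the replicate. Chek1, Apex1 and Rpa2 stand above the rest in every library, and Nbn and Mutyh spread most widely within the CROC+K group.

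Among the signalling genes, the upstream kinases were lower in every library than the kinases they activate. Atr had a mean FPKM of 1.519 and Chek1, its effector, 116.0. Atm, the kinase of double-strand breaks, was at 11.87 and its effector Chek2 at 22.87. The ATR activator Topbp1 was at 15.38, a level that is uncertain since Topbp1 has 2 annotated pseudogenes. The chromatin adaptors Trp53bp1 (53BP1, which favours end joining) and Mdc1 (a reader of phosphorylated H2AX) were at 5.30 and 1.773. Trp53bp1 was the steadiest member, with a 1.39-fold span from its lowest to its highest library.

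Within the double-strand break pathways, partner genes differed in level. In the MRN complex Rad50 (an ATPase, 14.49) was above Nbn (the adaptor that recruits ATM, 6.103) and Mre11a (the nuclease, 5.422). In homologous recombination Brca2, a mediator of strand exchange, had the highest mean at 35.83, above Palb2 (13.11), which joins BRCA2 to BRCA1. Xrcc2 (3.978) and Xrcc3 (2.748), which help to assemble the strand exchange filament, and Brca1 (3.679) were lower. In end joining the ligase cofactor Xrcc4 was at 15.08 and the ligase Lig4 at 6.306. Xrcc5 and Xrcc6, the Ku subunits that bind broken ends, were at 3.627 and 3.322, and Prkdc, the kinase they recruit, was lowest at 2.484. In the GENCODE annotation of GRCm38, Xrcc4 overlaps Tmem167 on the opposite strand. Whether the counting used strand is not given in the sources used here. That doubt also touches 13 other members (Ercc1, Ercc2, Fanca, Fancd2, Lig3, Mre11a, Msh3, Msh6, Ogg1, Trp53bp1, Xpa, Xrcc3 and Xrcc6), which each overlap an opposite gene.

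The base excision genes ranged from 2.247 to 90.45. Apex1 (90.45) and the strand-break sensor Parp2 (41.69) were highest, followed by the uracil glycosylase Ung (18.91). Lower means were found for the replicative ligase Lig1 (8.626), the sensor Parp1 (7.304), the scaffold Xrcc1 (7.133) and the adenine glycosylase Mutyh (3.180). Ogg1, the glycosylase of 8-oxoguanine, was at 2.260, and Lig3, the ligase partner of XRCC1, was lowest at 2.247. Parp2 was more abundant than Parp1 in every library.

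The 3 mismatch repair members were at similar levels: Pms2 was at 13.74, Msh3 at 12.53 and Msh6 at 10.11. In nucleotide excision repair the damage verifier Xpa (18.42) and the nuclease subunit Ercc1 (18.21) were above the TFIIH helicase Ercc3 (5.316). The other TFIIH helicase, Ercc2, had the lowest mean of all members, 0.533, and reached 1 only in CROC+K+M replicate 1 (1.077), so it was not tested. Rpa1, the large RPA subunit, was at 5.709 against 119.1 for Rpa2. The Fanconi genes Fanca and Fancd2 were at 3.963 and 3.299.

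Setting CROC+K against FOC+K concerns vitrification of the recipient oocyte. No repair gene differed past the test: 0 of 39 tested members passed an adjusted p of 0.05 in limma, as did 0 of 12272 genes (0.0%). At an unadjusted p under 0.05 in limma there was 1 member, Ogg1 (2.56%), beside 2.19% of all tested genes (1.14% higher), and without CROC+K replicate 1 there were 4 (Ogg1, Fanca, Nbn and Topbp1), 10.3% of the members beside 12.2% of all tested genes. The fitted mean was higher for 13 members and lower for 26, where 47.3% of all tested genes were higher, with a median log2 change of -0.14 beside -0.03 for all tested genes. That median was -0.0059 without CROC+K replicate 2 and 0.08 with a term for high or low Rn45s. That term sets only CROC+K replicate 1 against the FOC+K libraries, since the other CROC+K libraries had low Rn45s. The groups did not overlap for 5 members, Ogg1 and Chek1 higher and Fancd2, Topbp1 and Lig3 lower, against 19.1% of all tested genes (9.66% higher and 9.47% lower).

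Ogg1 had an FPKM of 3.644, 4.925 and 3.125 in the CROC+K libraries and of 1.745 and 1.014 in the FOC+K libraries. All 3 vitrified-oocyte libraries were above both fresh-oocyte ones. The log2 change was 1.04 ± 0.35 (SE) with an unadjusted p of 0.0194 and an adjusted p of 1.0 in limma. These levels correspond to about 8.2 to 33 fragments a library by that step, so counting error is large. Camk1, which overlaps Ogg1 on the other strand, was at 1.002 to 2.083 in these 5 libraries.

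Chek1 was at 122.8, 150.2 and 144.4 after vitrification and at 111.3 and 121.4 with fresh oocytes, a log2 change of 0.25 ± 0.24, which turned to -0.09 when the libraries were scaled to equal FPKM sums. The 2 Fanconi members had the lowest median change of the pathways. Tested Fanconi genes outside the members went both ways, from -0.705 for Fancf to 0.43 for Fancc. Fancd2, the protein that is ubiquitinated at crosslinks, was at 3.095, 2.349 and 0.9837 against 4.608 and 4.484, a log2 change of -0.88 ± 0.59. Fanca, a subunit of the complex that modifies it, was at 4.511, 0.8741 and 1.504 against 3.424 and 5.649, a log2 change of -0.87 ± 0.51. The low Fanca values were those of CROC+K replicates 2 and 3, the libraries with the most Kdm4a, and replicate 1 lay within the fresh-oocyte range. With the Rn45s split as a term, which sets only CROC+K replicate 1 against the FOC+K libraries, the Fanca change was 0.02.

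Topbp1 was at 18.26, 11.00 and 11.61 in CROC+K against 18.38 and 18.72, a log2 change of -0.45 ± 0.32, with replicate 1 next to the fresh-oocyte values. Of the remaining members with the smallest p in each direction, Xrcc6 (0.54 ± 0.57), Parp1 (0.34 ± 0.42) and Ung (0.26 ± 0.32) had higher fitted means. Without CROC+K replicate 1 the change of Xrcc6 was 0.17 and that of Ung 0.05, Ung turned to -0.06 on equal FPKM sums, and Parp1 ran from 0.19 to 0.63 when 1 CROC+K library was left out. Mutyh (-0.64 ± 0.64) and Prkdc (-0.33 ± 0.34) had lower ones. Mutyh rests on CROC+K replicate 2, where it was at 0.287 (about 2.1 fragments), and its change was 0.03 without that library. By pathway the median change ran from -0.88 for the 2 Fanconi genes to 0.11 for the 5 end joining genes.

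**Figure D2:**
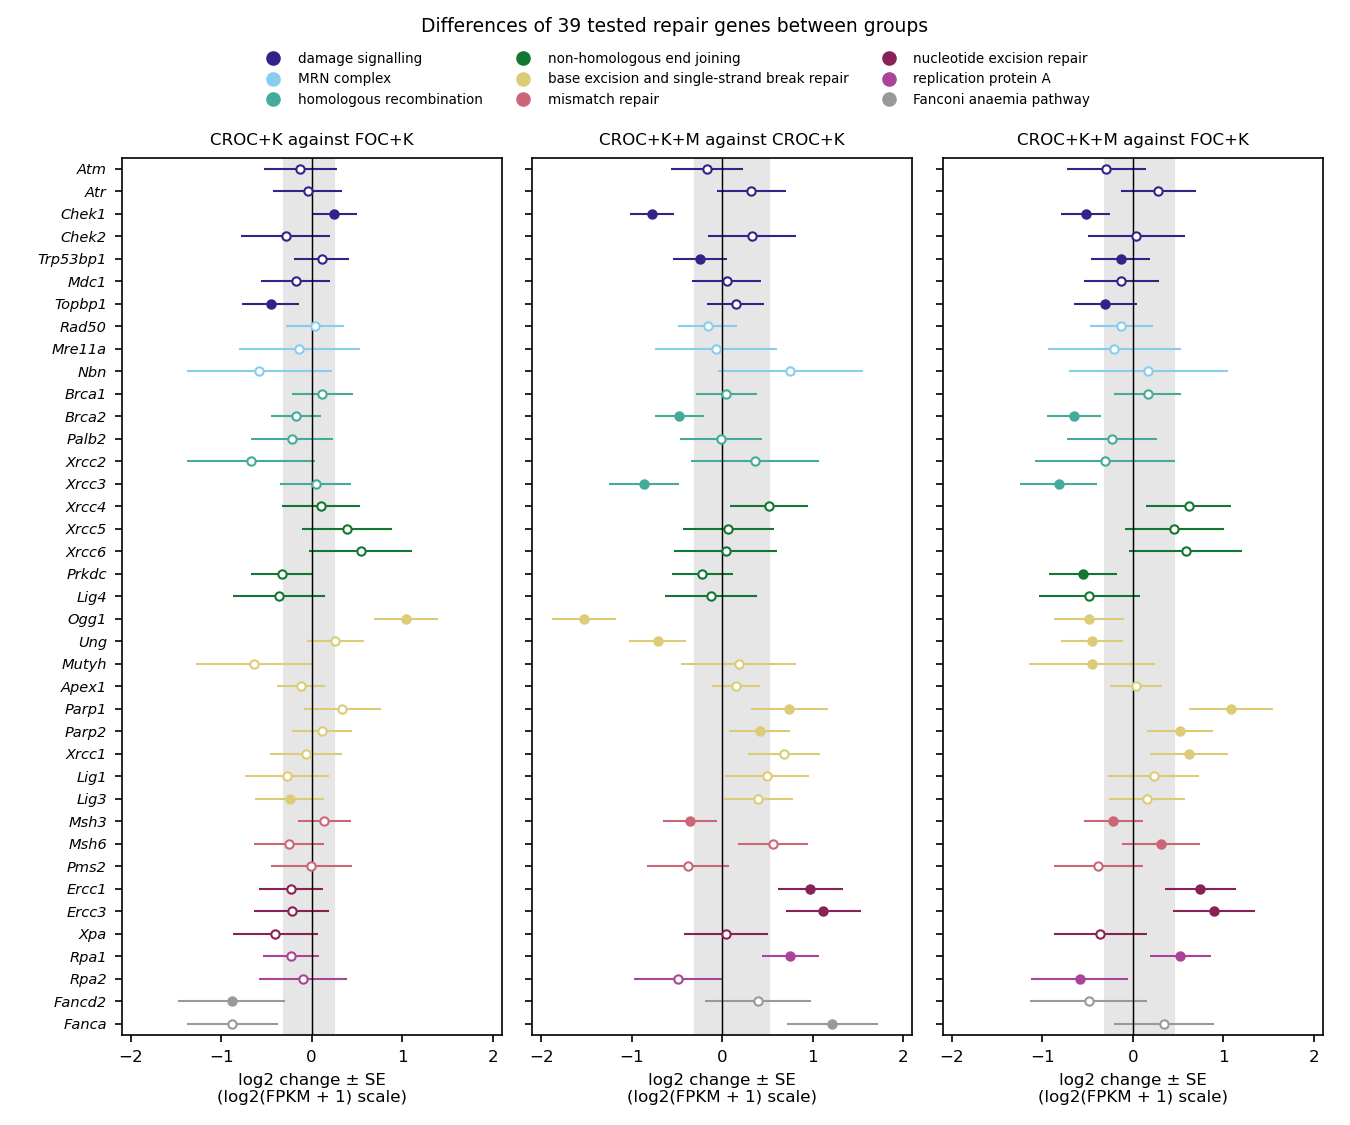
Log2 changes with standard errors from limma, on the log2(FPKM + 1) scale, for the 39 tested members in the 3 comparisons. Filled points mark groups that do not overlap, the grey band spans the quartiles of all 12272 tested genes, and Ogg1 lies to the right of the band in the left panel and to its left in the middle panel.

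CROC+K+M and CROC+K differ by melatonin, both on vitrified oocytes. Again 0 of 39 members passed the adjusted threshold in limma, beside 0.0% of all genes. At an unadjusted p under 0.05 in limma there were 6 members (15.4%), beside 10.4% of all tested genes (6.69% higher and 3.75% lower). Of these, Ercc1, Ercc3, Rpa1 and Fanca were higher and Ogg1 and Chek1 were lower with melatonin. Leaving out either melatonin library leaves that group 1 library, so members past a threshold are not counted there. Without CROC+K+M replicate 1 the changes of Ogg1 and Chek1 were -1.53 and -0.89. Those of Chek2, Fancd2 and Xrcc1, at 0.33, 0.39 and 0.68 in the full fit, were then 1.12, 1.32 and 1.065. The groups did not overlap for 13 of 39 members, 6 higher and 7 lower, against 23.4% of all tested genes (12.3% higher and 11.2% lower). The fitted mean was higher for 24 members and lower for 15, beside 54.1% higher among all tested genes, and the median log2 change was 0.07 beside 0.06 for all tested genes. Leaving out CROC+K+M replicate 1 gave a median of 0.29, and leaving out replicate 2 gave -0.25, so its sign depends on which melatonin library is kept.

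Ogg1 had the smallest p of the members here. Its FPKM was 0.6941 and 0.6731 with melatonin against 3.644, 4.925 and 3.125 without. Both melatonin libraries lay below every other library of the series for this gene, at about 5.2 and 6.2 fragments. The log2 change was -1.52 ± 0.35, with an unadjusted p of 0.00288 and an adjusted p of 0.408 in limma, and it was -1.53 without CROC+K+M replicate 1. That library held 48.37 FPKM of the opposite-strand gene Camk1, against 0.9741 in the other melatonin library, while Ogg1 was at nearly the same level in both. The CROC+K libraries enter both this comparison and the one with fresh oocytes, so the high and the low value of Ogg1 are not independent.

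Chek1 was at 87.64 and 74.29 with melatonin, below all 3 CROC+K libraries (122.8 to 150.2) and both FOC+K libraries. The log2 change against CROC+K was -0.77 ± 0.24, with an adjusted p of 0.408 in limma. Ung was at 13.31 and 13.16 against 30.43, 17.48 and 20.97, a log2 change of -0.72 ± 0.32. Xrcc3 was at 1.528 and 1.167 against 3.066, 2.446 and 4.523, a change of -0.86 ± 0.39, and Brca2 at 24.12 and 29.20 against 33.17, 39 and 40.09, a change of -0.48 ± 0.27. For these genes too, both melatonin libraries were below all CROC+K libraries.

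The higher members included the nucleotide excision genes Ercc3 and Ercc1. Ercc3 was at 9.858 and 7.664 with melatonin against 6.188, 2.625 and 2.442, a log2 change of 1.12 ± 0.41. Ercc1 was at 37.26 and 19.13 against 15.47, 13.78 and 10.62, a change of 0.97 ± 0.36 that was 0.51 without CROC+K+M replicate 1. Both had an adjusted p of 0.427 in limma. Xpa, the third tested gene of the pathway, was at 11.35 and 23.38 against 25.32, 15.53 and 10.03, and these ranges overlapped. Tested nucleotide excision genes outside the members went both ways, from -0.59 ± 0.43 for Ercc4 to 1.62 ± 0.99 for Gtf2h2.

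Rpa1 was at 8.527 and 7.597 with melatonin against 5.384, 3.690 and 4.179, a log2 change of 0.75 ± 0.31. Fanca was at 5.393 and 6.385 against 4.511, 0.8741 and 1.504, a change of 1.22 ± 0.51. Parp1 was at 14.46 and 8.135 against 7.567, 3.771 and 7.809, a change of 0.74 ± 0.42, which was 0.36 without CROC+K+M replicate 1. The trophectoderm markers were high in that same library, and their part in the Ercc1 and Parp1 values was not tested. The changes without CROC+K+M replicate 1 were 0.95 for Ercc3, 0.68 for Rpa1, 1.32 for Fanca and -0.89 for Chek1. That fit leaves 1 melatonin library and shares all its libraries with the full fit.

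CROC+K+M against FOC+K sets vitrification with melatonin against fresh oocytes and shares its libraries with the other 2 comparisons. Here 0 of 39 members passed the adjusted threshold in limma (0.0% of all genes), and 1 member, Parp1, had an unadjusted p under 0.05 (2.56%), beside 6.46% of all tested genes (4.46% higher and 2.0% lower). Fits without either melatonin library leave that group 1 library, so members past a threshold are not counted for them. The groups did not overlap for 7 higher and 11 lower members of 39, against 41.0% of all tested genes (21.3% higher and 19.8% lower), a high background since each group has 2 libraries. The fitted mean was higher for 18 members and lower for 21, where 52.9% of all tested genes were higher. The median change of -0.13, beside 0.04 for all tested genes, was 0.17 without CROC+K+M replicate 1.

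Parp1 was at 14.46 and 8.135 against 5.606 and 3.781 with fresh oocytes, a log2 change of 1.08 ± 0.46 with an adjusted p of 0.757 in limma. Without CROC+K+M replicate 1 it was 0.70. Ercc3 (0.90 ± 0.45), Ercc1 (0.74 ± 0.39), Rpa1 (0.53 ± 0.34) and Parp2 (0.52 ± 0.36) were higher too, and Parp2 turned to -0.06 on equal FPKM sums. The lower members were Brca2 (-0.65 ± 0.30), Chek1 (-0.52 ± 0.27), Xrcc3 (-0.82 ± 0.43), Prkdc (-0.55 ± 0.37) and Ung (-0.45 ± 0.35). For all 10 of these genes both melatonin libraries lay on one side of both fresh-oocyte libraries. They were named for the smallest p in each direction, a choice that favours such separation, and 41.0% of all tested genes showed it. Brca2, for instance, was at 24.12 and 29.20 against 48.70 and 36.56.

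In both vitrified groups the members were on balance highest in the library with the least Kdm4a, while the FOC+K libraries hardly differed. Each gene was set against its own mean over the 7 libraries (log2 scale), so differences between groups enter these values too. The median of the 39 members was 0.26 in CROC+K replicate 1, which had the least Kdm4a of its group. It was -0.24 and -0.20 in replicates 2 and 3. In the melatonin libraries it was -0.15 and 0.22, with less Kdm4a in replicate 2, and in FOC+K 0.04 and 0.05. Replicate 1 of the melatonin group also held the high trophectoderm markers. In that group, the difference in Kdm4a and the difference in these markers cannot be told apart. Over all 12272 tested genes the same medians lay between -0.02 and 0.01. For the MRN genes the value in CROC+K replicate 1 was 1.30.

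A slope on the log2 FPKM of Kdm4a was fitted within groups by limma. No member passed the adjusted threshold (0 of 39), while 28 of 12271 genes did (0.228%). At an unadjusted p under 0.05 in limma there were 8 members (20.5%), 7 with a negative and 1 with a positive slope, beside 15.1% of all tested genes (7.96% negative and 7.19% positive). The slope was negative for 24 members and positive for 15, where 51.5% of all tested genes had a positive one, with a median of -0.12 per doubling of Kdm4a beside 0.01 for all tested genes. In 10 of 39 members (25.6%) the library with the least Kdm4a held the highest value in all 3 groups, against 12.4% of all tested genes. These were Mre11a, Nbn, Rad50, Xrcc2, Brca1, Lig4, Atm, Topbp1, Xrcc1 and Fanca, and they included all 3 MRN genes. The reverse held for 2 members, Parp2 and Msh3 (5.13%), against 12.2%. In CROC+K+M either order sets replicate 2 against replicate 1, the library with high trophectoderm markers.

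**Figure D3:**
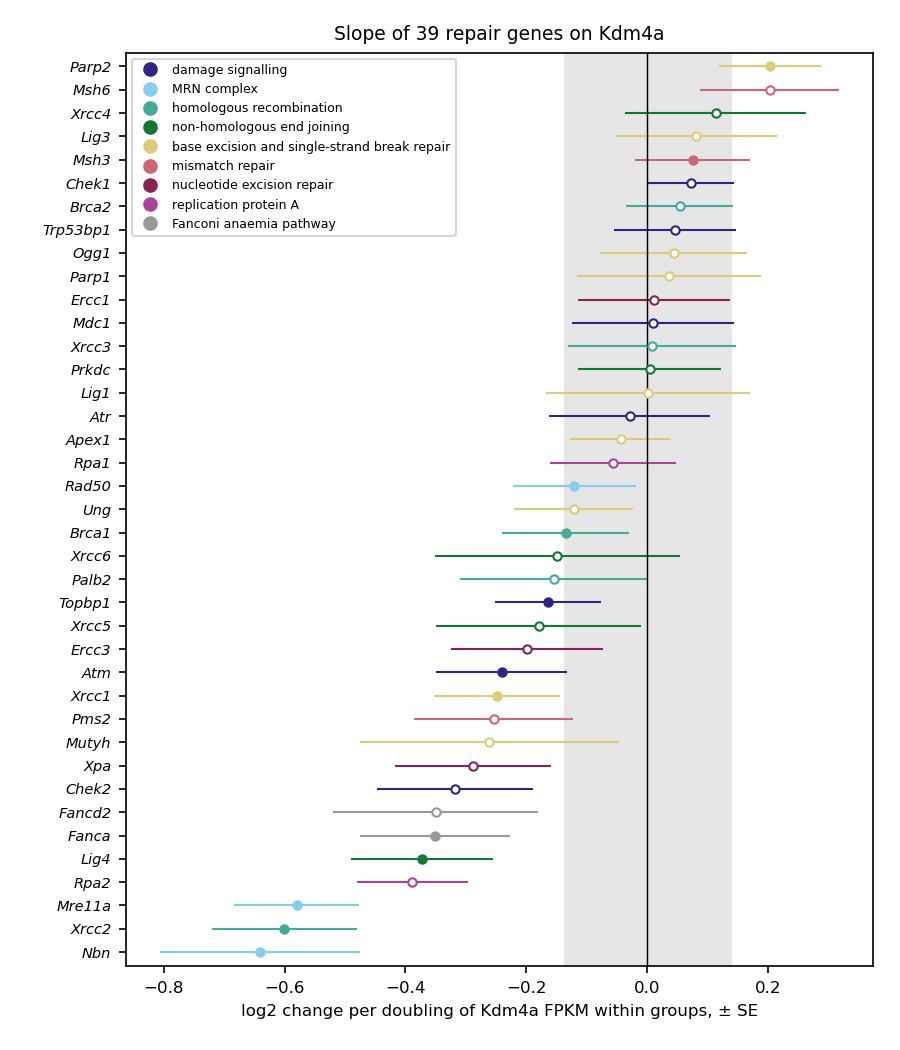
Slope of each tested member on Kdm4a (log2 change per doubling of Kdm4a FPKM within groups) with its standard error, coloured by pathway. Filled points mark members whose value in the library with the least Kdm4a was highest, or lowest, in all 3 groups, and the grey band spans the quartiles of all tested genes; Nbn, Xrcc2 and Mre11a lie farthest to the left.

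Mre11a was at 3.825 and 6.848 in FOC+K replicates 1 and 2, at 13.01, 2.768 and 2.318 in CROC+K replicates 1 to 3, and at 2.904 and 6.281 in CROC+K+M replicates 1 and 2. In each group the values ran opposite to Kdm4a across every library. The slope was -0.58 ± 0.10 per doubling, with an unadjusted p of 0.00111 and an adjusted p of 0.114 in limma. Ankrd49, on the other strand of this locus, was at 53.70 to 98.18 and highest in CROC+K replicates 2 and 3, where Mre11a was lowest.

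Nbn was at 5.080 and 6.622 with fresh oocytes, at 14.24, 0.9129 and 2.243 after vitrification and at 5.355 and 8.261 with melatonin. Its 15.6-fold span came from the CROC+K group, and the lowest value stands for about 10 fragments. The slope was -0.64 ± 0.17 (adjusted p of 0.174 in limma). Rad50, the third subunit, was also highest in the library with the least Kdm4a of each group but moved little, at 13.47 and 15.65, at 17.77, 17.34 and 10.69, and at 12.39 and 14.10, with a slope of -0.12 ± 0.10.

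For Xrcc2 the FOC+K libraries held 3.483 and 6.031, the CROC+K libraries 6.605, 1.741 and 1.116, and the CROC+K+M libraries 1.446 and 7.424, again opposite to Kdm4a across every library of a group. Its slope was -0.60 ± 0.12, with an adjusted p of 0.123 in limma. Xrcc3, which acts in the same pathway, had a slope of 0.01 ± 0.14. Lig4 was at 5.984 and 9.132, at 9.329, 5.752 and 3.072, and at 3.184 and 7.688, and had a slope of -0.37 ± 0.12.

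For Rpa2 the same 7 values were 133.2 and 122.2, then 228.7, 95.78 and 77.68, then 63.45 and 112.6. It ran against Kdm4a in the vitrified groups and slightly with it in FOC+K, with a slope of -0.39 ± 0.09 (adjusted p of 0.153 in limma). Parp2 ran the other way, at 39.89 and 31.12, at 26.19, 42.75 and 49.60, and at 51.78 and 50.53, a slope of 0.20 ± 0.08. The others with the smallest p among positive slopes were Msh6 (0.20 ± 0.12), Xrcc4 (0.11 ± 0.15), Msh3 (0.08 ± 0.10) and Chek1 (0.07 ± 0.07). The last 3 turned negative on equal FPKM sums (-0.04, -0.08 and -0.09).

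**Figure D4:**
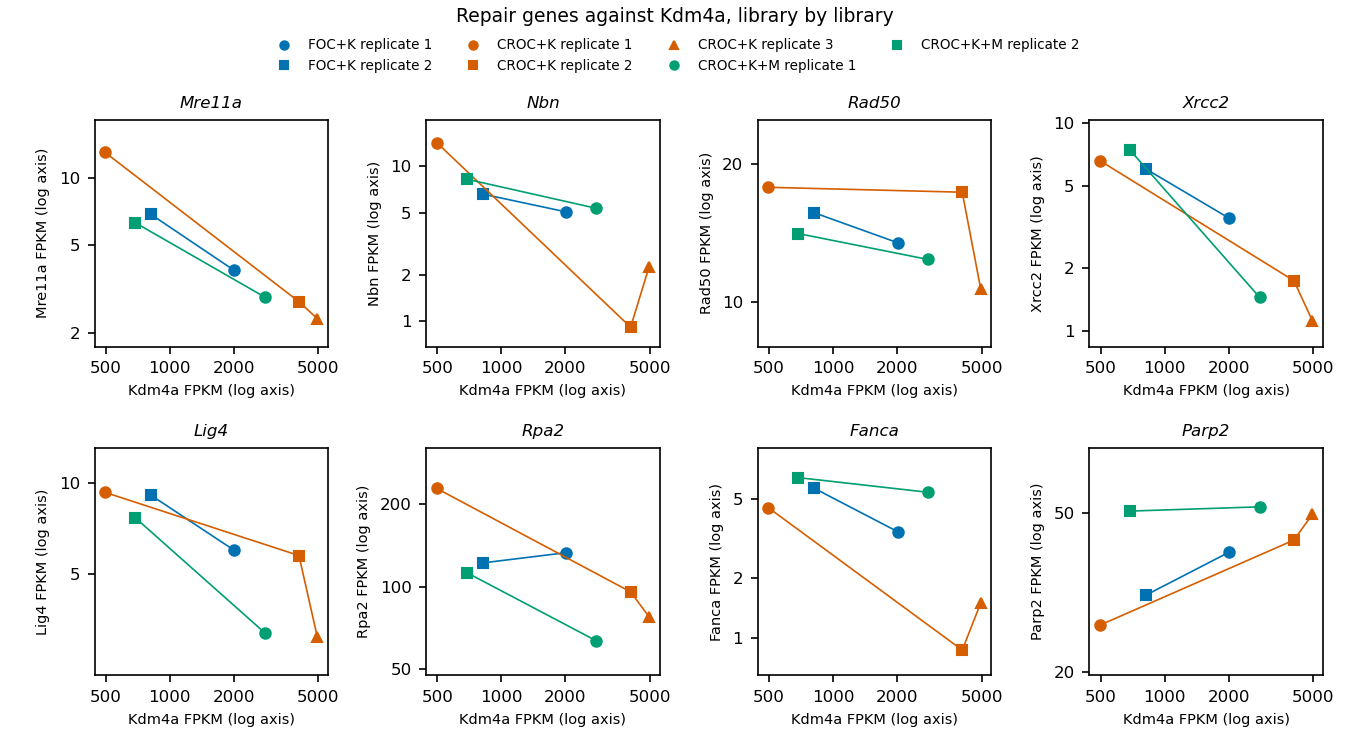
FPKM of 8 members against FPKM of Kdm4a in the same library, both on log axes, with lines joining the libraries of a group. Mre11a, Nbn, Rad50, Xrcc2, Lig4 and Fanca are highest at the least Kdm4a of each group, Rpa2 is so in 2 groups, and Parp2 is lowest there.

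The slopes leaned on CROC+K replicate 1, which had the least Kdm4a of all libraries and the most Rn45s. Without it 1 member had an unadjusted p under 0.05 in limma, Xrcc2 (-0.78, p of 0.0132, adjusted p of 0.415), or 2.56% of the members beside 11.1% of all tested genes. Mre11a was then at -0.47, Lig4 at -0.52, Rpa2 at -0.27, Nbn at -0.22 and Parp2 at 0.10, and the median of the members was -0.05 beside 0.02 for all tested genes. Adding a term for high or low Rn45s gave these same slopes as leaving out CROC+K replicate 1, since within groups that split sets only this library apart. Without either melatonin library, by contrast, Mre11a, Nbn and Xrcc2 passed the adjusted threshold in limma (adjusted p of 0.024, 0.041 and 0.0428 without replicate 1), in a fit where that group no longer bears on the slope. These 3 of 39 (7.69%) stood beside 6.82% of all genes tested without replicate 1 and 6.55% without replicate 2, so the share among the members was near the background. Other transcripts differed along with Kdm4a: the summed FPKM of 11 transient 2-cell genes was 265.4 and 76.73 with fresh oocytes, 47.41, 467.5 and 671.7 after vitrification, and 191.6 and 78.38 with melatonin, the order of Kdm4a in every group. Their part in the slopes of the members was not tested. Nor was that of Rn45s, or of the trophectoderm markers that were high in CROC+K+M replicate 1.

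Of 115 further repair genes, 114 were in the table and 108 were tested. In each of the 3 comparisons and for the Kdm4a slope, 0 of 108 passed the adjusted threshold in limma. At an unadjusted p under 0.05 in limma there were 1, 4 and 3 in the 3 comparisons, in the order given above, and 15 for the slope. These were 0.926%, 3.7%, 2.78% and 13.9% of the 108, each below the share of all tested genes (2.19%, 10.4%, 6.46% and 15.1%). Nthl1, another glycosylase of oxidised bases, had the smallest p after vitrification, at 8.437, 4.859 and 12.62 against 2.618 and 4.185, a log2 change of 1.07 ± 0.45. Pcna, the replication clamp, was at 174.4, 264.3 and 309.1 against 163.9 and 136.4 (0.69 ± 0.31). Both had all CROC+K libraries above both FOC+K ones. Mnat1 (-0.52 ± 0.31) and Rad54l (-0.56 ± 0.36) had lower fitted means. Gtf2h2 did too (-1.68 ± 0.99), but its groups overlapped, at 45.62, 3.302 and 2.794 against 25.12 and 31.72. Its change was 0.67 with the Rn45s term, which sets only CROC+K replicate 1 against the FOC+K libraries.

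With melatonin, Gtf2h5, the smallest TFIIH subunit, was at 240.7 and 259.3 against 141.3, 133.7 and 122.9 in CROC+K and 110.4 and 123.1 in FOC+K. Its changes were 0.91 ± 0.23 and 1.09 ± 0.26, with adjusted p of 0.408 and 0.736 in limma, and both melatonin libraries shared the high level. Wrn, a RecQ helicase gene, was lower, at 6.297 and 12.09 against 24.19, 21.95 and 17.56 (-1.17 ± 0.34) and against 20.81 and 17.86 in FOC+K. Rpa3, the small RPA subunit, was at 432.5 and 417.6 with melatonin against 213.5 and 210.1 in FOC+K, a change of 1.0 ± 0.33. Aptx (1.56 ± 0.52), which repairs abortive ligation ends, and the clamp loader gene Rfc4 (2.08 ± 0.86) were higher with melatonin than in CROC+K, and both were highest in CROC+K+M replicate 1 (6.375 and 90.89), without which the changes were 0.94 and 1.59. Rad52 (-0.78 ± 0.36) was lower than in CROC+K. The fitted mean of Rfc2, another clamp loader gene, was higher than in FOC+K (1.47 ± 0.70), at 24.46 and 4.684 with melatonin against 2.487 and 4.387, and the change was 0.39 without CROC+K+M replicate 1, the higher library. Against FOC+K, Parg (-0.71 ± 0.34) and Usp1 (-0.54 ± 0.29) were lower.

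Along Kdm4a, Ube2t, the conjugating enzyme that acts on FANCD2, was at 163.0 and 212.4, at 351.9, 184.9 and 142.4, and at 121.1 and 373.4, a slope of -0.44 ± 0.10 (adjusted p of 0.144 in limma). Gtf2h2, a TFIIH subunit, had the most negative slope of the 108 genes (-0.82 ± 0.19), which was -0.16 without CROC+K replicate 1, where it was at 45.62 against 3.302 and 2.794 in the other CROC+K libraries. Faap24, of the Fanconi core complex, had a slope of -0.46 ± 0.11, and Ube2a, Uimc1 and Ercc4 had positive ones (0.30 ± 0.09, 0.32 ± 0.10 and 0.31 ± 0.10). The median slope of the 108 was -0.06, with 40 positive and 68 negative.

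A list of 17 genes held p53 targets and Trp53, which encodes p53 itself. It summed to 397.5 and 380.9 FPKM with fresh oocytes, 458.8, 507.3 and 478.6 in CROC+K and 525.3 and 412.0 in CROC+K+M. The genes of the list did not move as one. Gadd45a, the stress gene, was at 61.54, 110.8 and 77.87 in CROC+K against 42.36 and 43.45 with fresh oocytes, while Cdkn1a, the cell cycle inhibitor p21, was at 25.09, 15.57 and 14.25 against 32.02 and 31.56. The highest sum, in CROC+K+M replicate 1, held 103.4 FPKM of Bax, which was at 11.79 to 23.78 in the other 6 libraries. The choice of Gadd45a, Cdkn1a and Bax for naming was made after seeing the values. Between 13 and 15 of the 17 had an FPKM of at least 1 in each library.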

How the data were processed

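RNA of 7 pools of SCNT embryos went through SMARTer cDNA synthesis and ScriptSeq v2 library preparation, per the labels' protocols. The authors deposited 1 table of FPKM values. Per the submitters' processing notes, the build was mm9 and the tools included Cuffnorm, Cufflinks 2.2.1, STAR 2.5.2b and R 3.3.2. The maker of the table, its annotation and any scaling between libraries: not given in the sources used here. Values were used as deposited, as log2(FPKM + 1), which understates changes of low genes. Genes with an FPKM of at least 1 in 2 or more libraries were tested, without 1275 small RNA and ribosomal precursor rows, leaving 12272. Tests were two-sided, by limma 3.58.1 with an intensity trend (R 4.3.3), with all 7 libraries in 1 model of group alone that leaves 4 residual degrees of freedom, and Benjamini-Hochberg adjustment at 0.05 over all tested genes. The Kdm4a slope added log2 FPKM of Kdm4a (3 residual degrees of freedom) and left its own row out. Errors are standard errors. The fits were tested on simulated data, with known changes put into genes of higher level. In the 3 comparisons a log2 change of 1 passed the adjusted threshold for 0, 2 and 1 of 50 genes. A change of 2 did for 25, 31 and 25 of 50, and a Kdm4a slope of 0.5 for 11 of 50.

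The members, the lists of further repair genes and of markers, and the tests were chosen with earlier results of these data known. Members with the smallest unadjusted p, up to 5 per direction in each comparison and for the slope, are named with their changes (for the further repair genes, up to 3 per direction), along with the highest and lowest member of each pathway; 1 further repair gene that this takes is not reported here. Other named values were chosen after they were seen. Alternatives were another pseudocount, no filter, equal FPKM sums, quantile normalization, array weights, each library left out, a replicate block, a term for high or low Rn45s (above or below 500), and Kdm4a as the only term. The Rn45s term for the slope was added after seeing the data. Further computing used Python 3.11.15, scipy 1.17.1 and matplotlib 3.10.9.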

Additional observations from a re-analysis of the deposited data

How the results depend on the processing

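In the 3 group comparisons, 0 members passed the adjusted threshold of limma under every alternative run. This does not mean that no gene did. Without CROC+K+M replicate 2, a fit with 1 melatonin library, other genes passed in both comparisons of the melatonin group. For the Kdm4a slope, members passed under some alternatives. Mre11a passed with array weights (1 member, adjusted p of 0.0406), Xrcc2 with Kdm4a as the only term (1 member, 0.0497), and Mre11a, Nbn and Xrcc2 without either CROC+K+M library. Leaving one of those out gives the melatonin group 1 library, which then adds nothing to the slope; the count over all tested genes rose from 28 to 815 or 788, and to 208 with array weights. Leaving out CROC+K replicate 1 gave 0 genes. On equal FPKM sums the median of the members was -0.44 for vitrified and -0.63 for melatonin libraries against fresh ones, or -0.27 (slope). The median of all tested genes shifted as well: relative to it, the members' medians were -0.14, -0.19 and -0.15. Leaving out 1 library moved the median of CROC+K against FOC+K between -0.23 and -0.0059, with 0.08 under the Rn45s term. That of melatonin against CROC+K moved between -0.25 and 0.30. For melatonin against FOC+K it moved between -0.21 and 0.17, with 0.34 under the Rn45s term. In both comparisons with FOC+K, values under that term rest on CROC+K replicate 1, the only library outside FOC+K with high Rn45s.

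Of single genes for CROC+K against FOC+K, Chek1 (-0.088) and Ung (-0.060) changed sign on equal FPKM sums, Fanca (0.023), Mutyh (0.27) and Gtf2h2 (0.67) with the Rn45s term, and Mutyh when libraries were left out (-1.09 to 0.033, the latter without CROC+K replicate 2). For CROC+K+M against FOC+K, Parp2 changed sign on equal sums (-0.058) and with the Rn45s term (-0.27), and Ung with the latter (0.19). Slopes changed sign for Chek1 (-0.09 on equal sums, -0.060 on quantile normalization), Msh3 (-0.075 on equal sums) and Xrcc4 (-0.041 on equal sums, -0.000312 with array weights, and between -0.012 without either melatonin library and 0.31 without CROC+K replicate 1). No named member changed sign for CROC+K+M against CROC+K. Causes were not tested. With the replicate number as a block, 0 members passed in any comparison, and the medians were -0.07, -0.01 and -0.13. Same-numbered libraries deviated from their group means with correlations of -0.46 to 0.03. In a group of 2 libraries these deviations mirror each other by construction, so the correlations cannot show whether the numbers pair the libraries. The few libraries of a group and the low fragment numbers of genes such as Ogg1 limit the precision.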
